A study of Mus musculus with 4 samples.

Results

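Zeb1 peaks were examined at 39 genes of fibroblast growth factor (FGF) signalling in mouse embryonic stem cells (mESC). The list holds 18 secreted ligands, 3 intracellular FGFs, 4 receptors, 4 genes of the relay from receptor to ERK, 8 feedback inhibitors and 2 ETS transcription factors. A gene was counted as having an assigned peak when the deposited list of Zeb1 peaks named its symbol for at least 1 peak. By this rule 32 of the 39 genes had a peak, and they held 60 of the 17435 peaks. The remaining 7 genes, which were Fgf1, Fgf2, Fgf7, Fgf10, Fgf17, Fgf20 and Fgf21, had none, and all of them encode secreted ligands.

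The cells were D3, an established mESC line, in GS medium, which is free of serum and contains LIF at 20 ng/mL together with PD0325901, a MEK inhibitor, at 1 µM and CHIR99021, an inhibitor of GSK-3, at 3 µM. The design consisted of 3 chromatin immunoprecipitation (ChIP) libraries made with 8 µg of an anti-Zeb1 antibody and 1 input library made without it, and all 4 came from cells in the same medium. Each peak carried an average number of treatment (ChIP) reads, an average number of input reads and an average enrichment over input, all computed by the authors, and no value per library. The spread between the 3 ChIP libraries could therefore not be measured for any peak, no SD accompanies the values, and differences between genes were described without a test.

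FGFs are secreted proteins that bind tyrosine kinase receptors together with heparan sulfate or Klotho proteins, and the activated receptor passes the signal through the adaptor Frs2 and the Ras, Raf, MEK and ERK kinases to transcription factors of the ETS family. The same cascade induces its own inhibitors, among them Sprouty and Spred proteins and the dual-specificity phosphatases of ERK. In mESC, Fgf4 acts as an autocrine signal towards differentiation, and the cells of every library described here were kept with a MEK inhibitor; ERK activity was not measured in these data. Zeb1 is a zinc finger protein that binds E-box sequences and is known mainly as a repressor in epithelial to mesenchymal transition.

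Peaks were assigned to 82.1% of the 39 genes, whereas 53.3% of the 21000 protein-coding genes of the reference, or 11190, had an assigned peak. A promoter peak, with its centre less than 5 kb from the transcription start site (TSS) of the assigned gene, was found for 31 of the 39 genes (79.5%), against 45.1% of all genes. A peak lay over a curated TSS of 31 of the 39, against 47.8% of all genes, and some part of the gene was overlapped by a peak in 33, against 54.4%. At least 2 peaks were assigned to 15 of the 39 genes (38.5%), against 14.1% of all genes. By all 5 counts the share was higher among the FGF genes and their relay and feedback genes than among all genes.

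The counts differed by role. All 18 receptor, relay, feedback and ETS genes had a promoter peak (100%), whereas 13 of the 21 FGF genes had one (61.9%). Both shares were above the 45.1% of all genes. CpG content at the TSS differed in the same direction. A gene was called CpG-rich when the 1001 bp around one of its curated TSSs had a CpG observed over expected ratio of at least 0.6 and a GC content of at least 50%, a class chosen after the peaks were seen. Of the 18 receptor, relay, feedback and ETS genes 17 were CpG-rich, with Fgfr2 as the exception, and of the 21 FGF genes 10 were. Among all genes, 72.9% of the CpG-rich and 17.1% of the CpG-poor ones had a promoter peak. In the list, 26 of the 27 CpG-rich genes had one, all but Fgf2, and so did 5 of the 12 CpG-poor genes, namely Fgf6, Fgf11, Fgf14, Fgf22 and Fgfr2. The 39 genes were more often CpG-rich (69.2%) than all genes (50.1%), and the part of this difference in the higher share of promoter peaks was not tested.

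**Figure D1:**
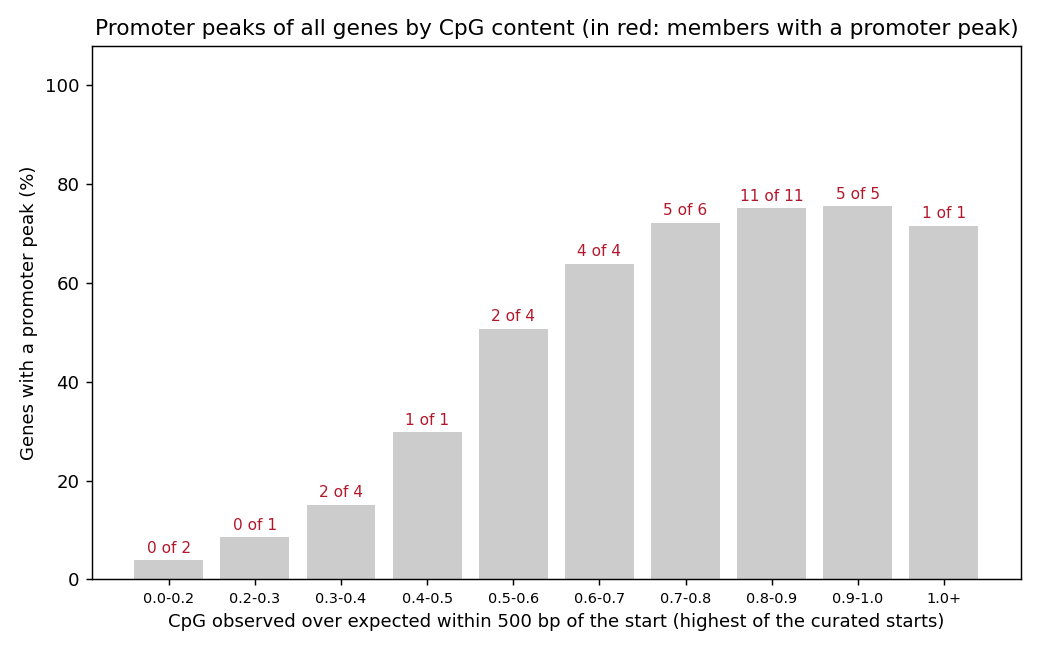
Share of all genes with a promoter peak (grey bars, percent) by the CpG observed over expected ratio around the TSS; the red labels give the number of FGF pathway genes on the list with a promoter peak out of those in each bin. The share of all genes was 3.92% in the lowest bin and 75.5% in the bin from 0.9 to 1, and 11 of 11 list genes between 0.8 and 0.9 had a promoter peak.

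The height of the peaks was set beside that of the whole list. Enrichment over input had a median of 6.33 over the 60 peaks, with quartiles of 5.26 and 8.41, against 6.50 over all peaks, with quartiles of 4.91 and 8.53. Treatment reads had a median of 51.3 against 47.4, and input reads 16.3 against 16. Per kb of peak, the median was 23.6 treatment reads against 25.1 over all peaks. When the most enriched peak of each gene was taken, the median was 7.29 over the 32 genes and 7.10 over the 11190 genes with a peak. An enrichment of 10 or more was reached by 9 of the 60 peaks (15%), and by 14.7% of all peaks. Counted by gene, the best peak reached it in 8 of the 32 genes (25%), and in 18.7% of all genes with a peak.

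**Figure D2:**
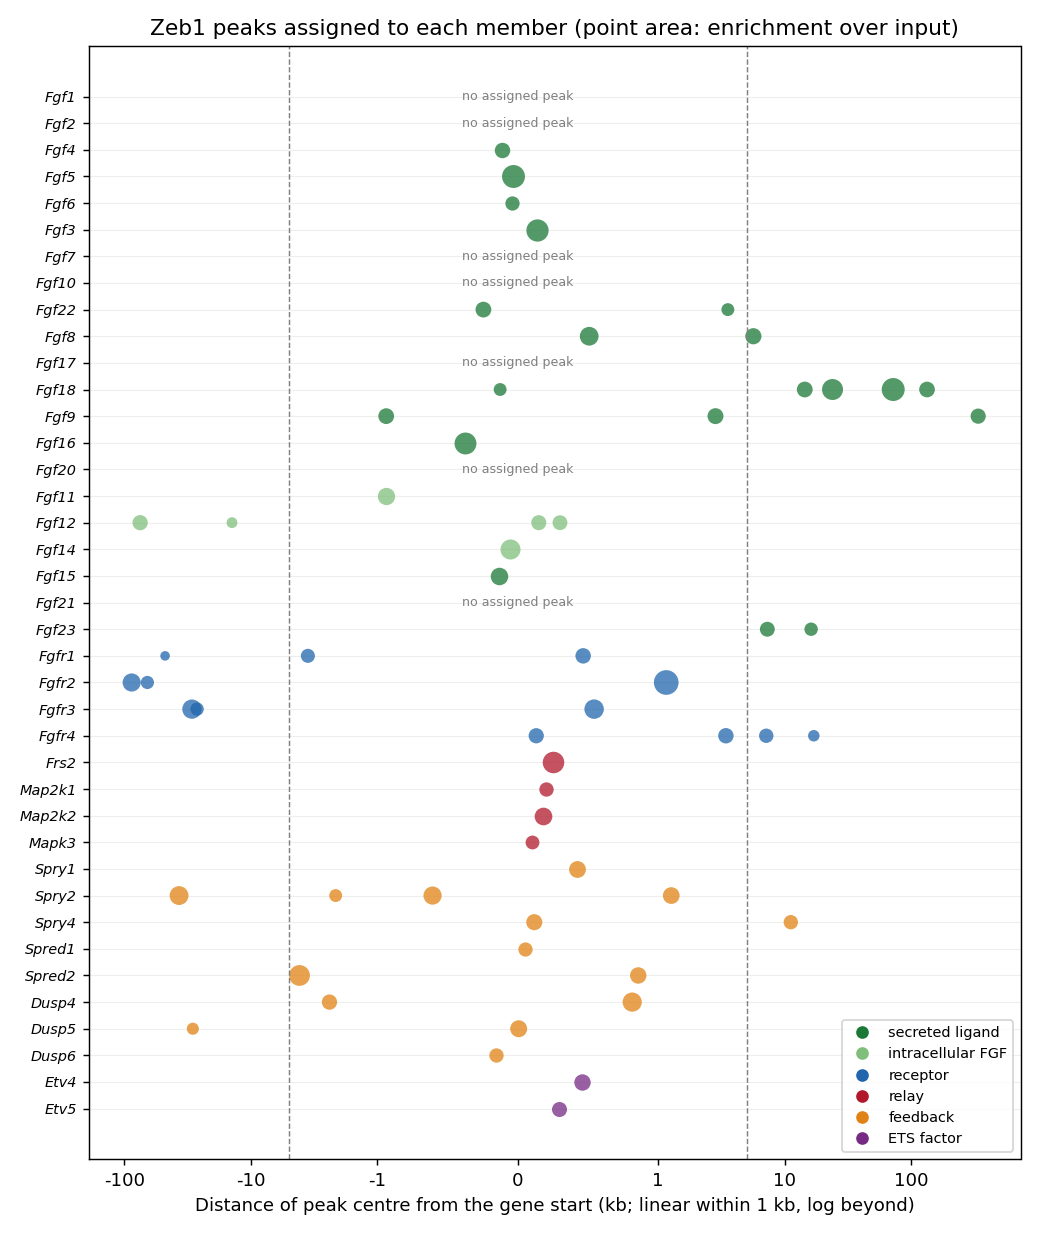
Distance of each assigned Zeb1 peak centre from the TSS of its gene in kb (linear within 1 kb, log scale beyond), with point area in proportion to enrichment and colours for roles; dashed lines mark 5 kb. Of the 60 peaks, 40 lay within 5 kb, and 7 genes, all of them ligands, had no peak.

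Within 5 kb of the TSS lay 40 of the 60 peaks (66.7%), and 61.4% of all peaks did. Of these 40, 24 were centred downstream of the TSS (60.0%) and 16 upstream, while 74.8% of all promoter peaks were centred downstream. The promoter peaks were longer, with a median of 2400 bp against 1950 bp over all promoter peaks, and their median of treatment reads was 62.6 against 52.6, while their median enrichment was 6.56 against 6.74. The 20 peaks farther away had a median of 32.6 treatment reads and an enrichment of 5.79, against 38.2 reads and 6 over all distal peaks. The centre of the peak fell in an intron in 16 cases, in a coding exon in 10 and in the 5′ UTR in 5, and it lay outside the curated transcripts of the assigned gene in 29. In 2 of these 29, at Fgf9 and Fgf11, it was inside the wider bounds of the gene in the reference. No share over all peaks is given for these locations, so they were not compared with the whole list.

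The peaks were searched for the Zeb1 motif [CT]N[CT]ACCTG, on both strands of the mm10 sequence. It was found in 48 of the 60 peaks (80.0%), against 76.8% of all peaks. Long peaks hold it more often, so the shares were also set side by side by length. In 4 classes from the shortest to the longest peaks, it was held by 6 of 9 peaks (against 65.3% of all peaks of 1050 to 1500 bp), 15 of 19 (72.7%, 1550 to 1850 bp), 8 of 8 (80.2%, 1900 to 2350 bp) and 19 of 24 (90.6%, 2400 bp and more). In the central 200 bp the motif occurred in 10 of the 60 peaks (16.7%), against 16.6% of all peaks. On the forward strand of the reference 35 of the 60 held it, against 54.4% of all peaks. The shorter core CACCTG, which overlaps the motif, was present in 52 peaks, against 82.1% of all. The 60 peaks had 0.768 motif matches per kb, and all peaks had 0.889. None of the peaks of Frs2, Map2k1 and Spred1 held a match, and the most matches, 6, were in the downstream promoter peak of Fgf9. A match is a run of letters and not a measured binding site.

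Of the 18 secreted ligands, 11 had an assigned peak (61.1%, against 53.3% of all genes), and 10 had one at the promoter (55.6%, against 45.1%). The families hold 2 to 4 genes each, and their peaks are listed without a comparison. In the FGF4 family, Fgf4, Fgf5 and Fgf6 each had 1 peak, and every one of them covered the TSS. In the FGF8 family, Fgf8 and Fgf18 held 7 peaks together. Fgf9 and Fgf16 of the FGF9 family held 4, and Fgf3 and Fgf22 of the FGF7 family held 3. Neither Fgf1 nor Fgf2, which form the FGF1 family, had a peak. Among the endocrine FGFs, Fgf15 and Fgf23 had 1 and 2 peaks, and Fgf21 had none.

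Fgf18, a ligand needed in bone and lung development, had 5 peaks, the most of the 39 genes, and also the highest enrichment of the ligands. That peak, chr11:33074251-33076100, had an enrichment of 13.5 from 47 treatment and 7 input reads, and lay 72225 bp downstream of the TSS, beyond the 3′ end of the gene. In the deposited annotation it lay in an intron of another Ensembl gene model. A peak in intron 4 of Fgf18, chr11:33122201-33124750, reached 11.3 with 54.7 treatment reads and 10.0 input reads. The peak over the Fgf18 TSS had the lowest enrichment of the 5, with 4.24 from 53 treatment and 25 input reads. Enrichment at this gene was thus higher inside and beyond the gene than at its TSS. The 2 other peaks lay in intron 3, with an enrichment of 6.39, and 133750 bp downstream, with 6.30, where the nearest curated TSS belonged to Gm12111 and not to Fgf18.

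Fgf5, which marks the epiblast as it leaves the naive state, had 1 peak, chr5:98253201-98255100, centred 34 bp upstream of its TSS, with an enrichment of 13.5 from 64.4 treatment and 10.4 input reads. Fgf3, a ligand of inner ear development, had an enrichment of 12.7 from 90.9 treatment and 14.7 input reads in a peak over its TSS. On the X chromosome, Fgf16 had an enrichment of 12.3 from 47.3 treatment and 8 input reads. These 3 TSS peaks stood above 93% of all peaks in enrichment. The motif match outside UTRs nearest to the centre of the peak is shown with its flanks for the 5 ligand peaks of highest enrichment, with the match in capitals, 5′ to 3′ on the strand that holds the match, from mm10.
Fgf18, chr11:33074904-33074943, reverse strand: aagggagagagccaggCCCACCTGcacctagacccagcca
Fgf5, chr5:98253510-98253549, forward strand: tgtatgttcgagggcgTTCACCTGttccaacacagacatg
Fgf3, chr7:144837561-144837600, reverse strand: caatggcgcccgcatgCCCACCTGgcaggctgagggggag
Fgf16, chrX:105763664-105763703, reverse strand: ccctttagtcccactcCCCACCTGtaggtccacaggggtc
Fgf18, chr11:33123461-33123500, forward strand: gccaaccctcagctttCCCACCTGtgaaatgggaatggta

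The match in the intronic Fgf18 peak lay 5 bp from the peak centre. In the other 4 peaks it was between 252 and 1170 bp away. The motif occurred in the 250 bases before the TSS in 14.3% of the 32851 RefSeq promoter windows of all genes, and in 2 of the 33 windows that matched 28 of the 39 genes. Neither Fgf5 nor Fgf3 had it there, although their peaks covered the whole stretch. Both windows are given from RefSeq in mm10, 5′ to 3′ towards the TSS, because they are the covered promoters with the highest enrichment. The Fgf5 window holds 24 CpG pairs at 70.8% GC and the Fgf3 window 4 at 55.2%. Over the 1001 bp around the TSS both genes were CpG-rich, with observed over expected ratios of 0.738 at Fgf5 and 0.798 at Fgf3.
Fgf5 promoter, chr5:98253934-98254183, forward strand: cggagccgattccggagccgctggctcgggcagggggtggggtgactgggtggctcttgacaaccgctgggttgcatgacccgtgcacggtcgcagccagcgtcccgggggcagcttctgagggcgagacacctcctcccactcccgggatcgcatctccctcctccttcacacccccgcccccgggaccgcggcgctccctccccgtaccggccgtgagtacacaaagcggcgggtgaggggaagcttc
Fgf3 promoter, chr7:144838362-144838611, forward strand: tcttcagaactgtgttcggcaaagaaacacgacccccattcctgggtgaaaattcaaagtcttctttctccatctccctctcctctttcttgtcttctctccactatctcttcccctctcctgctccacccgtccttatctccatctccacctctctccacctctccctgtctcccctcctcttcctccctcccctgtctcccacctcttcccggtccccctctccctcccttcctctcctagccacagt

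Fgf4, the ligand mESC themselves secrete, had the most treatment reads of the ligands in a most enriched peak, 100.2, with 32.6 input reads. The enrichment of this peak, chr7:144859701-144862850, was 6.10, below the median of all peaks, and its centre lay 111 bp upstream of the TSS. Fgf6, a ligand of skeletal muscle, had the lowest best enrichment of the ligands, 5.20, in a peak at chr6:127014701-127016300 with 29 treatment and 11 input reads. Fgf3, Fgf4 and Fgf15 lie side by side on chromosome 7, and the 72.3 kb that hold the 3 genes with 5 kb on either side contained 3 peaks, 1 over each TSS. Their enrichment was 12.7 at Fgf3, 6.10 at Fgf4 and 7.86 at Fgf15. Neighbouring ligand genes thus differed in enrichment while each had its own TSS peak.

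Fgf6 and Fgf23 are neighbours on chromosome 6. Fgf23, a bone hormone that lowers phosphate, had no promoter peak, and its 2 peaks lay in its last coding exon, 7298 bp downstream of the TSS with an enrichment of 5.67, and 16198 bp downstream, beyond the gene, with 4.60. It was the only one of the 32 genes with a peak that had none within 5 kb of the TSS. Fgf8, a ligand of gastrulation and limb development, had a peak over its TSS with 94.2 treatment reads and an enrichment of 8.98, and another over its last exon with 6.72. Fgf9, a ligand of gonad and lung development, had peaks centred on either side of its TSS, with 6.36 upstream and 6.51 downstream and 150 bp between them, and a peak 339439 bp away on a LINE-1 element with 5.90. Fgf22, which acts at synapses, had peaks with 6.38 at its TSS and 4.26 at 3556 bp downstream.

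The 7 ligands without an assigned peak differed in how far the nearest peak lay. Fgf17 was overlapped at its 3′ end by a peak, chr14:70635001-70637500, with 75.5 treatment reads and an enrichment of 6.15, which was assigned to its neighbour Dmtn. The nearest peak centre was 13310 bp from the TSS of Fgf21, 21072 bp from that of Fgf20 and 36203 bp from that of Fgf2, and these peaks were assigned to Rasip1, Micu3 and Cetn4. For Fgf1, Fgf7 and Fgf10 it was 74751, 117467 and 327799 bp away. Fgf2, a ligand widely used in cell culture, was the single CpG-rich gene among the 7, with a CpG observed over expected ratio of 0.749, while the ratio of the other 6 was between 0.193 and 0.575.

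The 3 intracellular FGFs, which are not secreted and bind voltage-gated sodium channels, all had a promoter peak, against 45.1% of all genes. Fgf14 had the highest enrichment, 10.25, with 53.5 treatment and 11.5 input reads at chr14:124191651-124193550. This peak lay 54 bp upstream of an inner TSS of the gene, which spans 703 kb. Fgf11 had the most treatment reads of the 39 genes, 193.4, with 48.8 input reads and an enrichment of 7.64. Its peak, chr11:69799601-69805700, was the longest of the 60 at 6100 bp and also covered the TSSs of Tmem102 and G630025P09Rik, so that its reads cannot be given to Fgf11 alone. Fgf12 had 4 peaks with enrichments of 3 to 5.95. Of these, 2 covered curated TSSs, and 1 lay on a LINE-1 element with 30.5 treatment and 25 input reads. The highest, chr16:28827301-28829150 with 26 treatment and 8.5 input reads, was centred 74982 bp upstream of the gene. In the deposited annotation this peak lay in an exon of an Ensembl gene model, outside the curated transcripts of Fgf12.

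All 4 receptor genes had more than 1 peak, 13 together, and each had a peak over a TSS. Over all genes these shares were 14.1% and 47.8%. Fgfr2, whose product binds Fgf7 and Fgf10 in epithelia, had the highest enrichment of the 60 peaks. In this peak, chr7:130264401-130266900, 98.4 treatment reads stood against 13.4 input reads, the enrichment was 15.6, and the centre lay in intron 1, 1158 bp downstream of the TSS. No motif match was found in it. This peak ran from -0.092 to 2.407 kb around the TSS, and so covered only part of the 250 bases before the TSS of Fgfr2. Its 2 other peaks, 65717 and 87492 bp upstream of this curated TSS, had enrichments of 4.45 and 8.40. The farther one rested on 21.5 treatment and 5 input reads. In the deposited annotation, the nearer one lay in an intron of an Ensembl gene model and the farther one at the TSS of another.

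Fgfr3, a receptor that restrains bone growth, had the most reads of the receptors. Its TSS peak, chr5:33721051-33724650, had an enrichment of 9.67 from 182.3 treatment and 38.4 input reads, with the centre in intron 2. Per kb of peak it had 50.6 treatment reads, the highest value of the 60 peaks. Upstream of Fgfr3 lay 2 peaks only 50 bp apart, centred 29199 and 26574 bp before the TSS, with enrichments of 9.53 and 4.56. The former had 39.1 treatment and 8.86 input reads, the latter 59.4 and 26.6, so that the peak with fewer reads had the higher enrichment.

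Fgfr1, the main FGF receptor of mESC, had an enrichment of 6.12 in its TSS peak, with 87.4 treatment and 29 input reads. A peak 3534 bp upstream had an enrichment of 5.07. A further one 47609 bp upstream had the lowest enrichment of the 60, 2.35, from 20.0 treatment and 17 input reads, and 20.0 is also the fewest treatment reads of any peak in the list. Fgfr4, a receptor of liver and muscle, had 4 peaks, which followed each other from the TSS to the end of the gene. The highest, chr13:55155601-55156900 over exon 3, had an enrichment of 6.09 from 26.3 treatment and 9.29 input reads. From the TSS onwards, the enrichment of the 4 was 5.94, 6.09, 5.30 and 3.38. The last peak was 5550 bp long, reached past the gene, and had 39 treatment and 32.5 input reads.

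**Figure D3:**
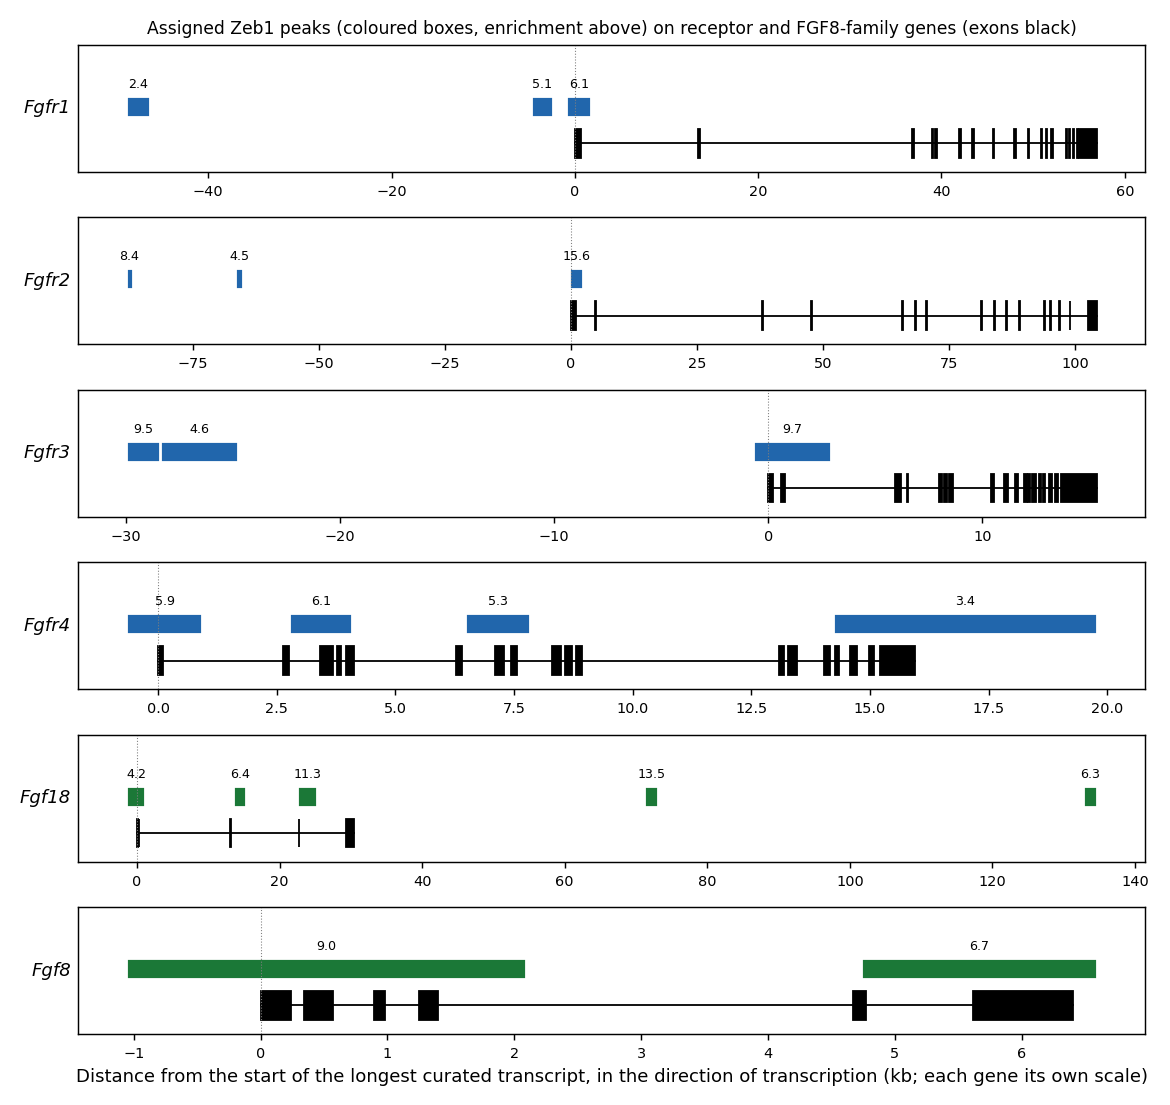
Curated exons (black) and assigned Zeb1 peaks (coloured boxes with their enrichment) of the 4 receptor genes and of Fgf18 and Fgf8, in kb from the TSS in the direction of transcription, each gene on its own scale. Every gene had a peak at the TSS. The other peaks lay upstream of the curated TSS in Fgfr1, Fgfr2 and Fgfr3 and downstream of it in Fgfr4, Fgf18 and Fgf8.

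Each of the 4 relay genes had exactly 1 assigned peak, and all 4 covered the TSS (47.8% of all genes had a peak over a TSS). Frs2, the adaptor that couples FGF receptors to Ras, had the highest enrichment of them, 11.8, at chr10:117147351-117149100, from 34.7 treatment and 6.14 input reads. Map2k1, which encodes MEK1, had more treatment reads, 82, and more input reads, 32, and an enrichment of 5.26 at chr9:64252501-64254300. Mapk3, which encodes ERK1, had the lowest enrichment, 4.90, at chr7:126758651-126760800, with 34.5 treatment and 13 input reads. Map2k2, the gene of MEK2, lay between with 7.99. Frs2 and Mapk3 had nearly the same treatment reads, and the input reads separated their enrichments. MEK1 and MEK2 are the targets of the PD0325901 present in the medium.

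**Figure D4:**
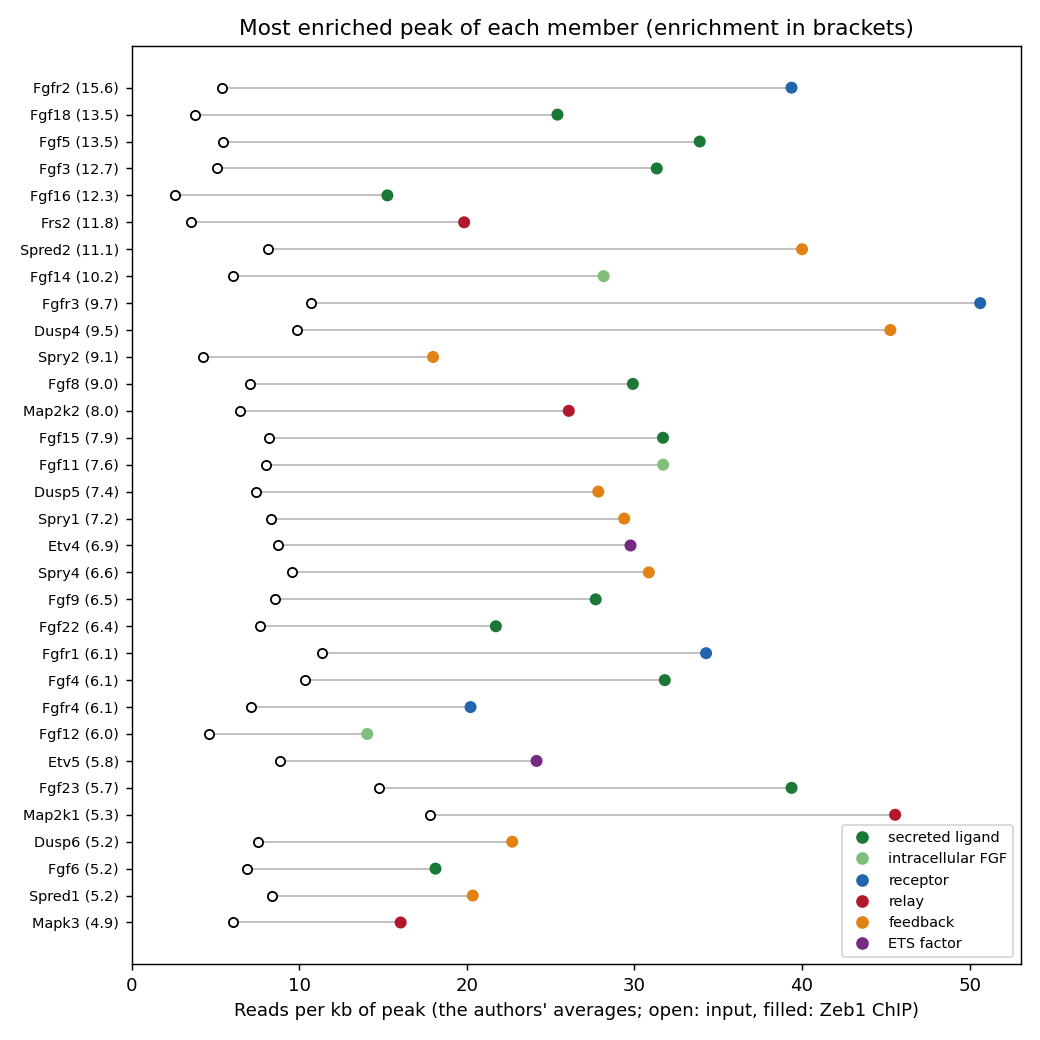
Treatment reads (filled, coloured by role as in the key) and input reads (open) per kb in the most enriched peak of each of the 32 genes with a peak, ordered by enrichment, which stands in brackets. The values are the authors' averages with no spread between libraries; Fgfr3 had 50.6 treatment reads per kb and Map2k1 45.6, while their enrichments were 9.67 and 5.26.

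All 8 feedback genes had a promoter peak, and together they held 15 peaks. All 8 were CpG-rich, and a promoter peak was found for 72.9% of all CpG-rich genes and 45.1% of all genes. Spred2, an inhibitor of the step from Ras to ERK, had the highest enrichment, 11.1, in a peak at chr11:19919501-19921150 centred 4117 bp before the TSS, where 66 treatment and 13.4 input reads were counted. Its peak over the TSS had more treatment reads, 105.7, more input reads, 34, and an enrichment of 6.89. The upstream peak held a motif match and the TSS peak did not. The match nearest to the centre of the upstream peak is shown in capitals with its flanks.
Spred2, chr11:19919955-19919994, forward strand: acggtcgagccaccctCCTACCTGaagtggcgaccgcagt

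Spred1, the other Spred gene on the list, had the lowest best enrichment of the feedback genes, 5.17, with 49.9 treatment and 20.6 input reads at chr2:117119901-117122350. Spry2, a Sprouty inhibitor, had 4 peaks, the most of the feedback genes. Around its TSS 3 peaks followed each other with gaps of 100 and 300 bp and enrichments of 7.15, 8.45 and 4.25. The highest, 9.10, was at chr14:105932901-105934550 on a LINE-1 element 36906 bp upstream, with 29.7 treatment and 7 input reads. Spry1 had 1 peak with an enrichment of 7.22. Spry4 had a peak with 6.61 at its TSS and one with 5.26 in its last exon.

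The ERK phosphatases differed in reads more than in the number of peaks. Dusp4, a nuclear phosphatase, had an enrichment of 9.46 from 192.4 treatment and 42 input reads at chr8:34806301-34810550, a peak of 4250 bp over its TSS, and a further peak with 5.99 lay 150 bp before it. Dusp5 had an enrichment of 7.36 at the TSS and 3.75 in a peak 28718 bp upstream. Dusp6, the cytoplasmic ERK phosphatase, had 94.2 treatment and 31.2 input reads in a peak of 4150 bp over its TSS, with an enrichment of 5.24.

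Etv4 and Etv5, the ETS factors that act as transcriptional readout of FGF signalling, each had 1 peak over the TSS with the centre in intron 1. Etv4 had an enrichment of 6.90 from 50.6 treatment and 14.8 input reads at chr11:101784001-101785700. For Etv5 the enrichment was 5.78, from 61.6 treatment and 22.6 input reads, at chr16:22438001-22440550. Both enrichments were near the median of all peaks. Etv5 was 1 of the 2 genes with a motif match in a promoter window of 250 bases, the other being Fgf22. Its window before an inner TSS is shown from RefSeq in mm10, with the match in capitals, which lies 155 to 162 bases before that TSS.
Etv5 promoter, chr16:22438369-22438618, reverse strand: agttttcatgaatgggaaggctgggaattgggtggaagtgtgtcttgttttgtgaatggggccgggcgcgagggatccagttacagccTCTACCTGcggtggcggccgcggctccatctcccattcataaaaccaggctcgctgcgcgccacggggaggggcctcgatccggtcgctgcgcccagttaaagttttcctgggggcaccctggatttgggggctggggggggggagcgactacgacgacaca

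**Figure D5:**
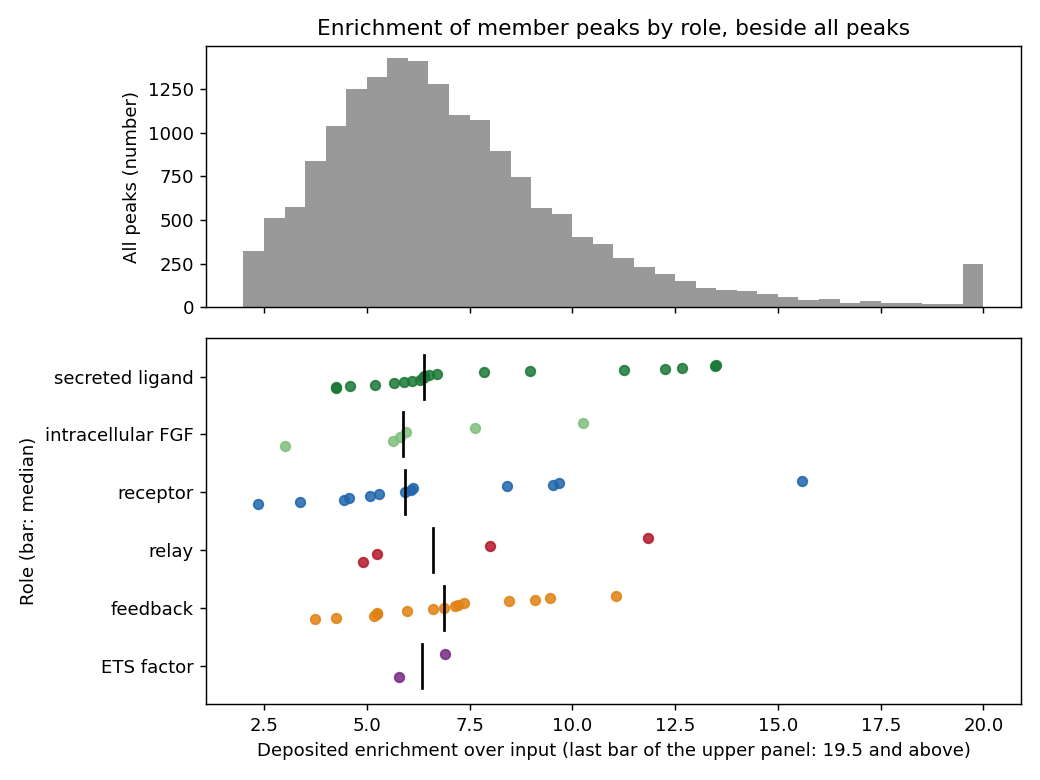
Enrichment over input of all 17435 peaks (upper panel, number of peaks per 0.5 units, with every peak of 19.5 and above in the last bar) and of the 60 peaks by role (lower panel, black bars are medians; the vertical offset only separates points). The 60 peaks, which are part of the whole list, ran from 2.35 to 15.6, and the whole list from 2 to 81.85.

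Another 62 genes of the pathway were listed by role, and 61 of them matched a curated gene, all but Spry3, which was not analysed here. An assigned peak was found for 50 of the 61 (82%) and a promoter peak for 46 (75.4%), against 53.3% and 45.1% of all genes. These genes were CpG-rich in 50 cases (82%), against 69.2% of the 39 genes. The median of their best enrichments was 7.76, against 7.29.

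Among coreceptors and FGF-binding proteins, 12 of 15 had a peak, and the heparan sulfate proteoglycan Sdc1 had the highest enrichment, 13.5, while Klb, Fgfbp1 and Sdc2 had none. Of the adaptors 10 of 11 had one, with 15.5 at Crkl and none at Shc1. The Ras to ERK relay had 8 of 12, with 11.45 at the scaffold gene Ksr2 in a peak 141423 bp downstream of its TSS, and none was assigned to Hras, Nras, Araf and Rps6ka2. Of the inhibitors 9 of 10 had a peak, and none was assigned to Spred3. The highest was 14.3 at Cic, a repressor that ERK inactivates, in a peak 9979 bp upstream of its TSS. Nuclear targets had 10 of 12, with 19.3 at Fosl1, a member of the AP-1 family, and none at Elk1 and Ier3. Fgf13, an intracellular FGF outside the list, had 1 peak with an enrichment of 8.25. The Ras to ERK relay had the lowest share of genes with a peak among these roles of 10 or more genes.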

How the data were processed

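Zeb1 ChIP-seq of 3 ChIP libraries and 1 input library was analysed from the deposited list of unified peaks. According to the submitters' notes and methods, reads were aligned to mm10 with STAR 2.4.2a, duplicates were removed with Picard 1.136, peaks were called against the input and kept when present in at least 2 libraries, and HOMER 4.7 assigned genes. The read columns are a signal, the treatment or input reads of a peak as averaged by the authors. Enrichment is a ratio of treatment over input that the authors normalized for mapped reads; the methods also describe scaling the recounted reads to one depth. Divided by the ratio of the 2 read columns of the same peak, the deposited enrichment had a median of 2.07 over all peaks, and whether these columns hold reads before or after that scaling was not settled here. The deposited p-value is 0 for every peak and was not used. In 35 of the 60 peaks the treatment reads are whole numbers (within 0.002) only after multiplication by 5, 7, 9 or 12, and the divisors are not given in the sources used here.

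Members were matched by gene symbol, with the same Entrez ID in all 60 peaks. Gene structures and sequence came from RefSeq GRCm38.p6, the assembly of mm10, and all genes are the 21000 protein-coding ones with a curated transcript. The deposited distance was within 2 bp of the reference in 51 of 60 peaks and within 100 bp in 57, with positive values downstream of the TSS, opposite to the deposited legend. Python 3.11.15, NumPy 2.4.6, pandas 2.3.3, pysam 0.24.0 and Matplotlib 3.10.9 were used, and the motif search, nearest-TSS assignment and merging were tested on simulated sequences and positions. The members and lists were chosen with earlier results of these data known. Genes with a peak were named by role, with full values for those with the highest and lowest enrichment, the most peaks and the most reads; the other single peaks, the CpG classes and the neighbouring genes were added after the values were seen. The study drew the same number of reads from each library before alignment, and the reads left after alignment and deduplication were not used here.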

Additional observations from a re-analysis of the deposited data

How the results depend on the processing

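Of 6 results recomputed under other settings, 5 are counts (genes with an assigned peak, their peaks, genes with a promoter peak, genes overlapped by a peak, and peaks with the motif). Of the 20 alternatives for these counts, 17 left the count within 1.5 times the reported one and 3 did not. The other counts (2 or more peaks, TSS covered, CpG classes, wider pathway) were not recomputed. With an enrichment of at least 10, the genes with an assigned peak went from 32 to 8 (25%, against 18.7% over all genes with a peak) and their peaks from 60 to 9, where fewer peaks are kept by construction. In the central 200 bp, 10 peaks held the motif instead of 48, since a shorter stretch was searched. The median enrichment of the best peaks, 7.29, became 7.03 when the peak with the most treatment reads was taken and 7.22 with promoter peaks alone. With an enrichment of at least 5, the counts were 31 genes and 49 peaks, and the shares over all genes and all peaks at this cut are not given here. The 2 alternatives chosen after seeing the data, without LINE-1 peaks and with peaks nearest to a TSS of the same gene, gave 57 peaks and 32 genes. Leaving out a library, or measuring the spread between libraries, was not run because each peak has 1 averaged value. No paired analysis was possible because the results come from no test and the columns carry no replicate numbers. The number of reads left per library after alignment and deduplication was not used here. A gene without an assigned peak was not shown to lack Zeb1, and peaks near the minimum of 20.0 treatment reads rest on few reads. High enrichments over few input reads, such as 6.14 in the Frs2 peak and 7 in the highest Fgf18 peak, also rest on few reads.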

Other observations

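Several genes of the pathway carried Zeb1 peaks that the deposited list gave to a neighbour. A peak assigned to Uchl4 lay inside Map2k1, 39130 bp downstream of its TSS, with an enrichment of 6.10 from 32.5 treatment and 10.5 input reads. Inside Map2k2, 17085 bp downstream, a peak with an enrichment of 5.10 was assigned to Zbtb7a. The 3′ ends of Mapk3 and Fgf11 were overlapped by peaks assigned to Gdpd3 and Chrnb1, with enrichments of 7.49 and 4.7. From the wider pathway, the TSS of Hras was covered by a peak assigned to Lrrc56, with 71.4 treatment reads and an enrichment of 7.44, and a TSS of Spred3 by a peak assigned to Ggn, with 231.3 treatment reads and 6.97. Both genes counted as without an assigned peak.

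Of the 28 pairs of neighbouring peaks of 1 gene, 11 (39.3%) were less than 5 kb apart and 17 were farther; over all genes 29.9% of such pairs were less than 5 kb apart. The 11 pairs lay in 9 of the 32 genes, and merging them left 49 regions of the 60. The shortest gap was the 50 bp upstream of Fgfr3. LINE-1 or other LINE elements were the annotated feature of 3 of the 60 peaks (5%), against 14.3% of all peaks; these were the peaks of Fgf9, Fgf12 and Spry2 described above, with enrichments of 5.90, 3 and 9.10. In 4 genes, Fgf12, Fgf18, Fgf23 and Spry2, the most enriched peak lay more than 5 kb from the TSS, and this was so for 24.1% of all genes with a peak.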
